A study of Mus musculus with 2 samples.

Results

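The genes described here are 31 mouse genes of the ATF4 programme and of serine and one-carbon metabolism, taken by name from the 17775 genes of the count matrix, in which all 31 were found. They were measured in single cells from tumours of MC38, a mouse colon carcinoma line, grown in the back of C57BL/6 mice. From day 7 after implantation the mice received by gavage, for 14 days, either DFMO (difluoromethylornithine, which blocks ornithine decarboxylase and so the first step of polyamine synthesis) or water. Tumours were dissociated, immune cells were enriched on Ficoll, and the cells of 4 mice were pooled into 1 single-cell 5' library in each group. The labels state no dose, age or sex. With pooled animals and 1 library a group there was no replicate error, so no test between the groups was possible. Every interval below is a 95% interval of counting error only.

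ATF4 is a transcription factor whose protein accumulates when the initiation factor eIF2 is phosphorylated, for example during amino acid shortage or stress of the endoplasmic reticulum. It pairs with other leucine zipper proteins, the C/EBP family among them, and its known targets include genes of amino acid uptake and synthesis, the charging of tRNA, and feedback on the stress response. The serine pathway makes serine from a glycolytic intermediate, and the one-carbon enzymes pass the carbon of serine to folate, which feeds nucleotide synthesis. These genes are well known in tumour cells and in dividing lymphocytes.

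The DFMO library held 4421 kept cells with a median of 2208 UMIs (unique molecular identifiers, counts of captured RNA molecules) per cell, and the water library held 6150 with a median of 6334.5. The libraries shared 37 barcode sequences. Cells fell into 19 clusters, which were named from marker genes, and a name ending in "-like" means only that. The libraries differed widely in their mix of cells. B cell-like cells numbered 1479 in DFMO and 57 in water, and monocyte and macrophage-like cells numbered 187 and 1222. Although the labels call the cells immune, 686 DFMO and 2901 water cells lay in clusters nearly without Ptprc, which encodes CD45, the protein that marks leukocytes. Of these, 156 and 1026 cells (cluster 2) were fibroblast-like by their collagen and matrix genes. The other 530 and 1875 cells, called Ptprc-low here, had 3.02 CPM (UMIs of the gene scaled to 1000000 in the library and class) of Ptprc in DFMO and 1.21 in water, against 745 and 646 in NK cell-like cells. They were not named further, since the 5 tumour epithelium markers summed to 0.323 CPM in DFMO and 24.3 in water. Their 3 clusters were cluster 1, led by cell division genes (Anln, Cenpf), cluster 3, led by genes known from low oxygen (Car9, Ankrd37), and cluster 13, led by the chemokine gene Cxcl9. Cluster 13 held endothelial markers at 237 CPM in DFMO and 143 in water, and the epithelial markers at 0 in DFMO and 389 in water. The 3 clusters held 276, 174 and 80 Ptprc-low cells in DFMO and 967, 627 and 281 in water, nearly the same proportions.

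The binding sequence best known for ATF4 with a C/EBP partner has the core TGATGNAA, where N is any base. It was searched on both strands in RefSeq promoter windows on GRCm38.p6, from 250 bases before to 50 after the start site, which were found for 25 of the 31 genes. It was present in 7 of the 25 windows (28%), against 4.51% of 27025 genes with a window and 3.13% of the 12607 of these genes that are in the matrix. Among them were Asns, Chac1, Gars, Nupr1, Trib3 and Vldlr, and none of the 8 serine synthesis and one-carbon genes with a window was among them. A match is a description of the letters and not a bound site. The stretches below show 5 matches that lie before the start site, 5′ to 3′ on the gene's own strand, with the match in capitals, because these genes, all but Gars, were over 4-fold higher in the cells nearly without Ptprc, as described next. The match of Trib3 lies after the start site and is not shown. Asns, with the motif read forwards, lies at chr6:7693214-7693243 on the minus strand. The other 4 hold it as its reverse complement, at chr2:119351038-119351067 (Chac1, plus), chr6:55037960-55037989 (Gars, plus), chr7:126625562-126625591 (Nupr1, minus) and chr19:27216809-27216838 (Vldlr, plus).
Asns: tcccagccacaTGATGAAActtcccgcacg
Chac1: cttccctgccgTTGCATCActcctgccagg
Gars: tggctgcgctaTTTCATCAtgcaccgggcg
Nupr1: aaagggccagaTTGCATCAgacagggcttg
Vldlr: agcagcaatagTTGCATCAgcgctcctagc

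Most of the 31 genes were highest in the cells nearly without Ptprc. Among classes with at least 50 cells in that library, 26 of 30 genes had the same highest class in both libraries. That class was Ptprc-low for 19 genes, fibroblast-like for 3 (Atf5, Nupr1, Vldlr), regulatory T cell-like for 2 (Ddit4, Wars), monocyte and macrophage-like for Cebpb and B cell-like for Ppp1r15a. The highest class was not counted over all genes, so these counts have no share beside them. For Wars the highest and the second class were not apart beyond counting intervals (53.0 against 51.7 CPM in DFMO, 51.7 against 49.2 in water), and its highest class changed in both libraries with doublets kept and at Leiden resolution 0.5, and in DFMO with cells of at least 500 genes. The first and second class also overlapped in their intervals for Vldlr in both libraries, for Aars and Atf5 in DFMO, and for Atf4, Cebpg, Sars and Stc2 in water. The remaining gene, Slc7a3, a transporter of cationic amino acids, had 4 UMIs in DFMO and 8 in water over all kept cells, too few to measure in any class. In the sum of Ptprc-low and fibroblast-like cells, 23 of 30 genes in DFMO and 21 in water were at least 2-fold higher than in the sum of named leukocytes, 20 of them in both libraries. The same was so for 23.8% of 12526 genes in DFMO and 28.5% of 13310 in water. At least 10-fold higher were 9 genes in DFMO and 6 in water, against 9.27% and 10.4% of all genes. These genes could take part in the clustering and the cells differed in depth (median 17711 UMIs in DFMO and 14370 in water, against 1973 and 3924 in the named leukocytes), so the levels by class are given as a description.

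**Figure D1:**
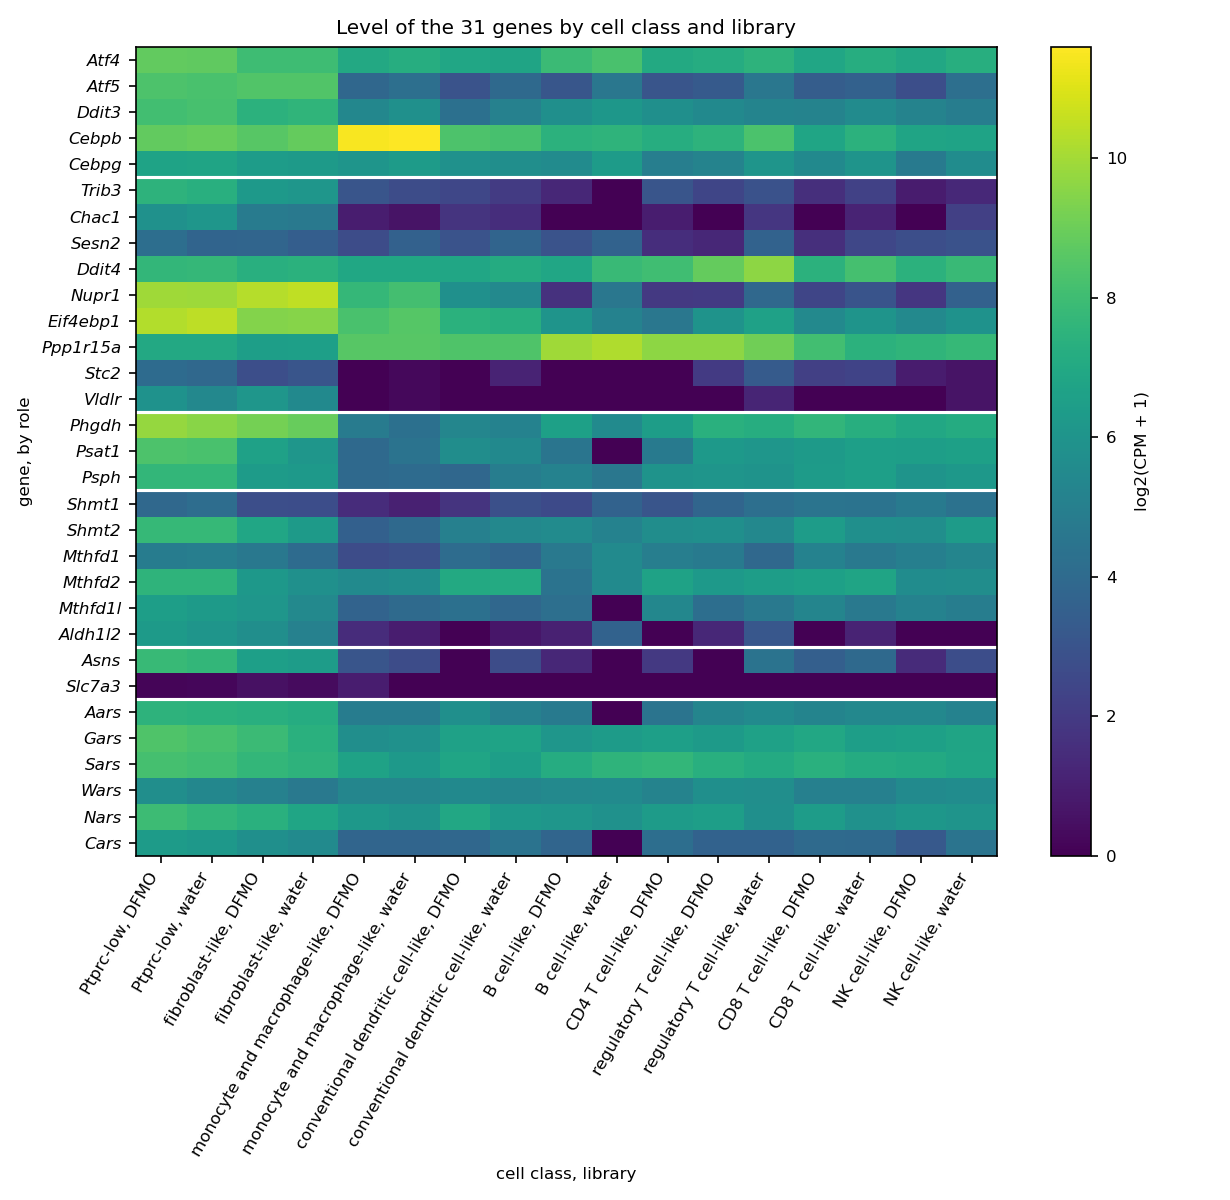
Level of each of the 31 genes (rows, by role, white lines between roles) in each cell class and library (columns), as log2(CPM + 1) of summed UMIs. Classes with under 50 cells in a library are left out. Most rows are brightest in the Ptprc-low and fibroblast-like columns, while Ppp1r15a is brightest in B cell-like cells and Cebpb in monocyte and macrophage-like cells.

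Among the transcription factors, Atf4 itself (chr15:80255184-80257541, plus strand, mm10) was read in every class. It had 441 CPM in Ptprc-low cells of DFMO and 440 in water, 257 and 255 in fibroblast-like cells, and 116 and 149 in CD8 T cell-like cells. Ddit3, which encodes CHOP, the factor that ATF4 pairs with in prolonged stress, had 274 CPM in Ptprc-low cells of DFMO and 293 of water, against 42.3 and 45.3 in named leukocytes. That was 5.99-fold higher in DFMO (5.42 to 6.63) and 5.83-fold in water (5.37 to 6.35) for Ptprc-low and fibroblast-like cells together. The contrast was larger for Atf5, a close relative of Atf4, which had 334 CPM against 8.86 in DFMO, 37.7-fold higher (30.7 to 46.9), and 316 against 17.0 in water, 18.6-fold higher (16.2 to 21.3). Cebpb, a factor long known from macrophages and liver, had another pattern. In DFMO it had 2844 CPM in the monocyte and macrophage-like class and 447 in Ptprc-low cells, and in water 3094 and 469. Cebpg, a partner of ATF4 without an activation domain of its own, varied less, with 103 and 107 CPM in Ptprc-low cells and 26.4 and 48.2 in NK cell-like cells.

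Several stress and feedback genes differed widely between the classes. Trib3 (chr2:152337422-152344032, minus strand), a pseudokinase that restrains ATF4 and CHOP, had 181 CPM in Ptprc-low cells of DFMO and 158 of water, 74.6 and 66.6 in fibroblast-like cells, and 1.98 and 3.68 in CD8 T cell-like cells. Chac1, an enzyme that degrades glutathione, had 57.9 and 66.4 CPM in Ptprc-low cells and 0 UMIs in B cell-like cells of both libraries. Vldlr, a receptor for lipoproteins, had 705 UMIs in Ptprc-low and fibroblast-like cells of DFMO and 0 in the named leukocytes, at least 212-fold higher with 3 UMIs over the group taken as the limit of 0. In water it was 182-fold higher (62.1 to 883). Nupr1, a small stress-induced chromatin protein, had its highest levels in fibroblast-like cells, with 1266 CPM in DFMO and 1424 in water. Eif4ebp1, whose product holds back cap-dependent translation, had 1215 and 1378 CPM in Ptprc-low cells and 309 and 372 in monocyte and macrophage-like cells. Stc2, a secreted glycoprotein, had 15.5 and 14.1 CPM in Ptprc-low cells. Sesn2, which senses leucine, was 3.7-fold higher (2.67 to 5.23) than in leukocytes in DFMO but 1.24-fold (1.01 to 1.52) in water.

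The share of cells with a UMI gave the same order for Trib3 after each cell was thinned to 1000 UMIs. It was seen in 63 of 523 Ptprc-low cells in DFMO (9.38 to 15.1%, exact binomial) and 12.7% of 1860 in water (11.3 to 14.3), in 3.87% and 5.50% of fibroblast-like cells, and in 0.208% and 0% of B cell-like cells. Without thinning these shares were 61.3% and 58.5%, 41.7% and 31.7%, and 0.270% and 0%, at median depths of 18653.5 and 16704, 15840 and 11726, and 1762 and 1314 UMIs a cell. Thinning left out 7 and 15 Ptprc-low, 1 and 8 fibroblast-like and 36 and 9 B cell-like cells. With only 48 thinned B cell-like cells in water, the 0 allowed a share of up to 7.40% (exact binomial upper limit).

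Ppp1r15a went the other way. It encodes GADD34, which brings a phosphatase to eIF2 and so ends the signal that raises ATF4. It had 969 CPM in B cell-like cells of DFMO and 1198 of water, against 126 and 127 in Ptprc-low cells and 88.6 and 91.6 in fibroblast-like cells. The only other of the 30 genes at least 2-fold lower in the Ptprc-low and fibroblast-like cells than in named leukocytes was Cebpb, in water alone (0.326-fold), where the leukocytes held 1222 monocyte and macrophage-like cells against 187 in DFMO. The share of all genes at least 2-fold lower was 26.1% in DFMO and 20.6% in water. Ppp1r15a is also known as a gene that tissue dissociation can induce. The summed level of 16 immediate early and dissociation genes was 27478 CPM in B cell-like cells of DFMO and 19817 in water, and 2443 and 2735 in Ptprc-low cells. Across the 19 clusters Ppp1r15a and that sum had Pearson r = 0.87 and Spearman rho = 0.88 in DFMO, and r = 0.85 and rho = 0.77 in water, as a description of clusters that share a library. Over the 14 clusters other than 1, 2, 3, 13 and the unnamed cluster 16, r was 0.70 in both, and rho was 0.73 in DFMO and 0.57 in water. The part of cell handling in its level was not tested.

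**Figure D2:**
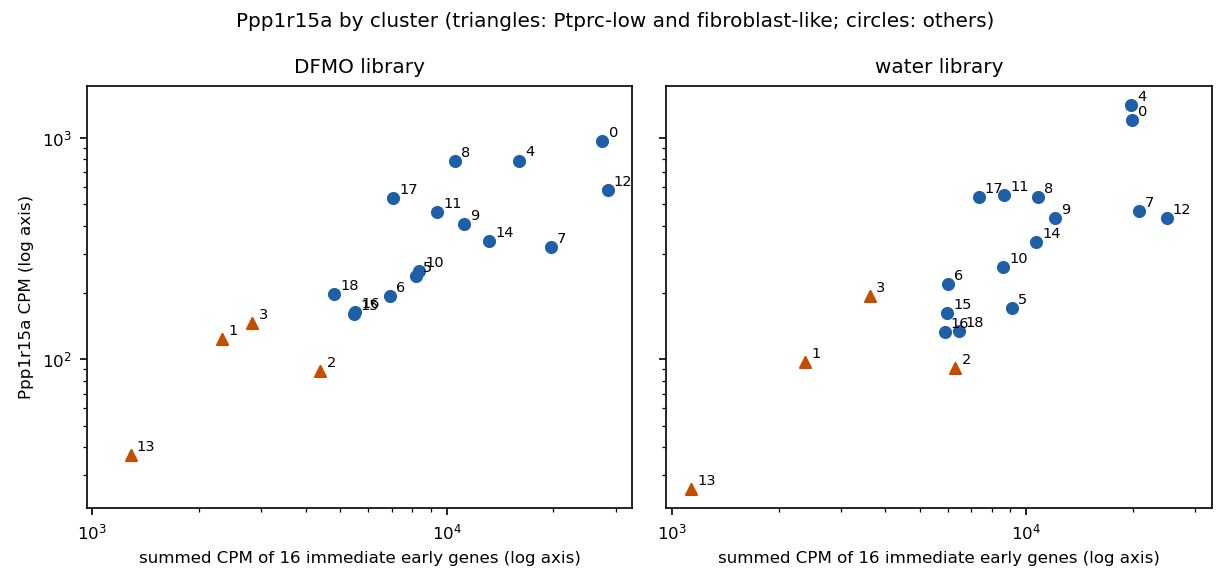
Level of Ppp1r15a (vertical, CPM, log axis) against the summed level of 16 immediate early and dissociation genes (horizontal, CPM, log axis) in the 19 numbered clusters of the DFMO (left) and water (right) libraries. The Ptprc-low and fibroblast-like clusters (triangles) lie low on the vertical axis, and the B cell-like cluster 0 lies at the upper right in both.

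By class, Ddit4 also did not follow most of the other genes. Its product, REDD1, restrains mTORC1 and is induced by low oxygen and glucocorticoids as well as by ATF4. It had 459 CPM in regulatory T cell-like cells of DFMO and 786 of water, above 205 and 210 in Ptprc-low cells. Among single clusters with at least 50 cells, the Ptprc-low cluster 3 came second, with 321 CPM in DFMO and 327 in water.

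The serine pathway was high in the same cells and graded among the leukocytes. Phgdh (chr3:98313170-98339990, minus strand), the enzyme of the first committed step, had 880 CPM in Ptprc-low cells of DFMO and 752 of water, 580 and 480 in fibroblast-like cells, 200 and 152 in CD8 T cell-like cells, and 27.2 and 18.5 in monocyte and macrophage-like cells. Some 55.9% of the 31-base stretches of its transcripts also occur in those of other genes, chiefly the pseudogenes Gm7901, Gm9347 and Gm8341, so its counts are uncertain. Psat1, the transaminase of the second step, had 328 and 305 CPM in Ptprc-low cells, 98.8 and 66.7 in fibroblast-like cells and 14.5 and 20.1 in monocyte and macrophage-like cells. Psph, the phosphatase of the last step, had 202 and 207 CPM in Ptprc-low cells and 80.6 and 76.8 in fibroblast-like cells. Among lymphocytes, the cycling CD8 T cell-like cluster 15 had 587 CPM of the 3 genes summed in DFMO and 455 in water, with the 16 cell cycle genes summed at 8074 and 8294. B cell-like cells, with cell cycle sums of 262 and 334, had 151 and 69.1. In water those were 57 cells with 2 UMIs of Psph and 0 of Psat1. Clusters 4 and 18 were smaller still in water, with 38 and 30 cells. Across the same 14 clusters, again as a description, the cell cycle sum and Phgdh had r = 0.58 and rho = 0.65 in DFMO and r = 0.71 and rho = 0.74 in water. For Psat1 these were r = 0.59 and rho = 0.82 in DFMO and r = 0.52 and rho = 0.64 in water, and for Psph r = 0.56 and rho = 0.45 in DFMO and r = 0.50 and rho = 0.42 in water.

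Of the one-carbon enzymes, the mitochondrial Shmt2, Mthfd1l and Aldh1l2 were over 3-fold higher in the non-leukocyte cells of both libraries, and the cytosolic Shmt1 and Mthfd1 were within 2-fold. Shmt2, which takes the carbon from serine in mitochondria, had 220 and 215 CPM in Ptprc-low cells and 53.9 and 37.2 in named leukocytes. Mthfd1l, the mitochondrial enzyme that releases formate, had 90.2 and 78.5 CPM in Ptprc-low cells, and was 3.2-fold (2.8 to 3.67) and 3.62-fold (3.17 to 4.14) higher in the non-leukocyte cells than in leukocytes. Aldh1l2, a mitochondrial enzyme that oxidises formyl-tetrahydrofolate, had 79.1 and 64.7 CPM in Ptprc-low cells and 0.572 and 1.31 in leukocytes. The corresponding folds were 128 (58.8 to 351) and 42.5 (26.5 to 73.1). For the cytosolic Shmt1 and Mthfd1 the same folds were 0.992 (0.777 to 1.27) and 1.06 (0.902 to 1.25) in DFMO, and 1.46 (1.2 to 1.79) and 1.62 (1.39 to 1.89) in water. Mthfd2, a mitochondrial dehydrogenase, had 187 and 184 CPM in Ptprc-low cells (2.41-fold and 1.76-fold for the non-leukocyte cells together) but also 211 and 313 in migratory dendritic cell-like cells, a class of 31 DFMO and 80 water cells, and 45.4 and 50.6 in monocyte and macrophage-like cells.

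Asns, which makes asparagine, had 225 CPM in Ptprc-low cells of DFMO and 203 of water, and 4.57 and 7.94 in named leukocytes, 43.4-fold (32.6 to 59.0) and 21.3-fold (17.5 to 26.1) higher with fibroblast-like cells included. The 6 tRNA synthetases, which load amino acids onto tRNA, differed less between classes. Aars had 181 and 167 CPM and Gars had 334 and 294 CPM in Ptprc-low cells, against 32.7 and 33.1 and against 89.0 and 79.9 in leukocytes. Cars was 5.61-fold (4.69 to 6.75) and 4.18-fold (3.62 to 4.85) higher, Nars 2.93-fold (2.71 to 3.17) and 2.79-fold (2.59 to 3.01), and Sars 1.83-fold (1.72 to 1.95) and 2.42-fold (2.28 to 2.56). Wars, a synthetase also known as an interferon target, was 1.21-fold (1.07 to 1.38) and 0.909-fold (0.822 to 1.01). Of the 31-base stretches of Aars, 13.9% occur in other genes, mostly Exosc6, which overlaps it on the same strand.

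The clusters of non-leukocyte cells differed in which genes of the programme led. Among clusters with at least 50 cells in that library, 16 in each, 21 of 30 genes had the same highest cluster in both libraries. The highest cluster was not counted over all genes. Cluster 3 was the highest for 10 genes: Atf4, Ddit3, Trib3, Cebpg, Vldlr, Nupr1, Eif4ebp1, Mthfd1l, Aldh1l2 and Sars. Cluster 1 was the highest for Phgdh, Shmt2, Aars and Cars, and cluster 13 for Atf5, Asns and Wars, though the intervals of the first and next cluster overlapped for Asns and Wars in both libraries, for Atf5, Cebpg, Sars and Vldlr in DFMO, and for Nupr1, Phgdh, Shmt2 and Aars in water. Ddit3 had 429 CPM in cluster 3 of DFMO and 503 of water, against 187 and 186 in cluster 1 and 112 and 121 in cluster 13. Trib3 had 240.5 and 239.8 CPM in cluster 3, 158 and 120 in cluster 1, and 35.2 and 45.5 in cluster 13. Phgdh had 985 and 829 CPM in cluster 1 and 736 and 612 in cluster 3. Shmt2 had 269 and 248 CPM in cluster 1 and 153 and 155 in cluster 3. The 14 hypoxia genes summed to 18794 and 18313 CPM in cluster 3, 6124 and 6547 in cluster 1 and 7314 and 8520 in cluster 13, so cluster 3 was the highest for them as for Ddit3 and Trib3, but cluster 13 stood above cluster 1 for the sum and below it for both genes. Phgdh and Shmt2 were high where the cell cycle genes were high (2845 and 2857 CPM in cluster 1, 344 and 448 in cluster 3). Cluster 13 had low Ddit3, Trib3 and Chac1 beside high Psat1, with 516 and 310 CPM, and Asns, with 260 and 218. Its median depth, 4980 UMIs a cell over both libraries, was below that of clusters 1 and 3, and erythroid markers there summed to 1.53 CPM in DFMO and 939 in water.

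**Figure D3:**
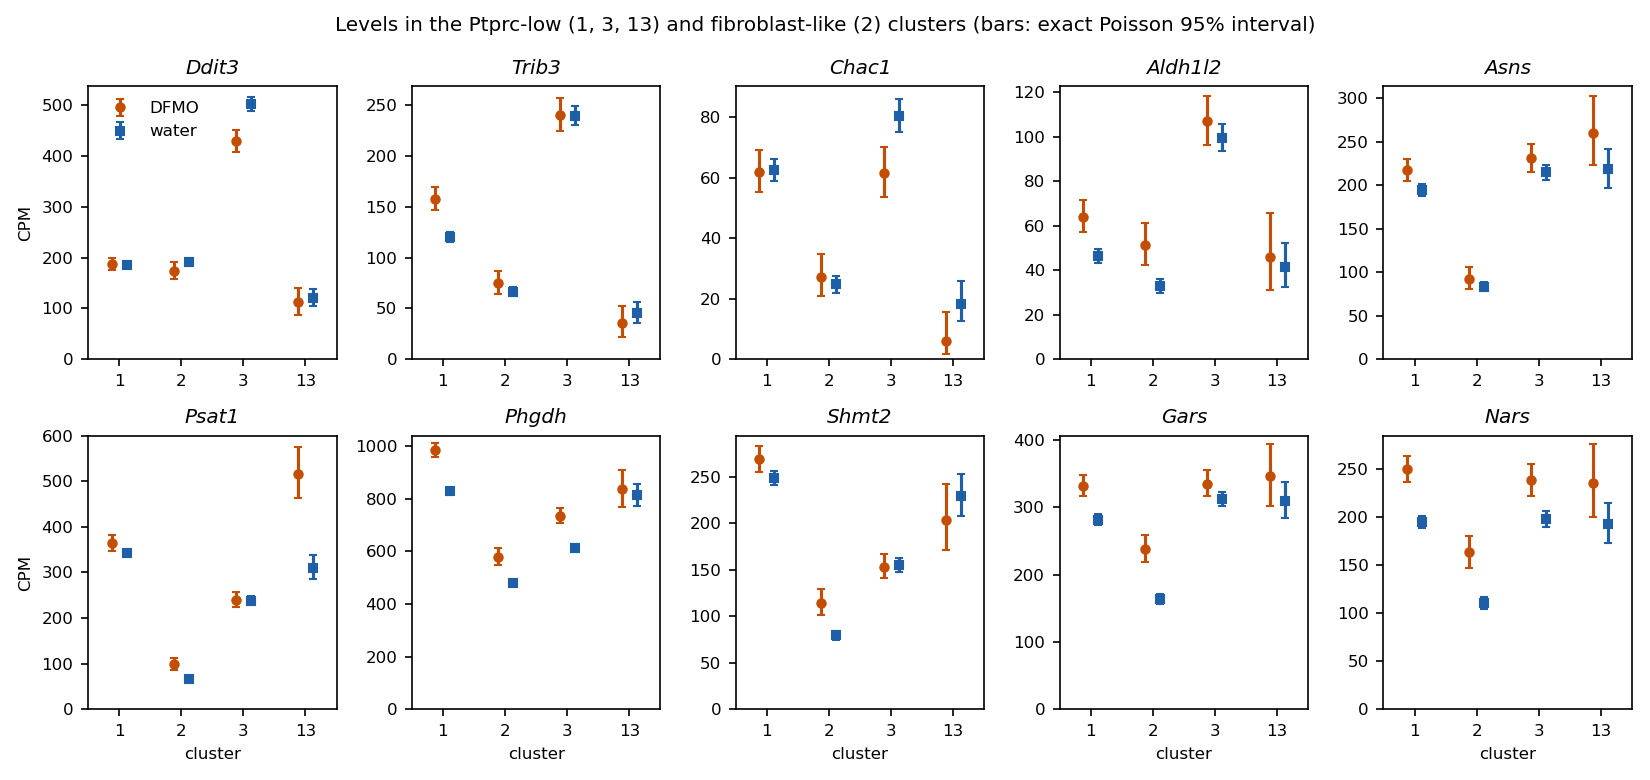
Levels of 10 of the genes (vertical, CPM from 0, 1 panel a gene) in the Ptprc-low clusters 1, 3 and 13 and the fibroblast-like cluster 2, in DFMO (circles) and water (squares), with exact Poisson 95% intervals. Ddit3 and Trib3 stand highest in cluster 3, Phgdh and Shmt2 highest in cluster 1, and for Nars the DFMO point lies above the water point in all 4 clusters.

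The second comparison was between the groups. In Ptprc-low cells the programme as a whole was at nearly the same level. None of the 30 measured genes (at least 30 UMIs in all) was 1.5-fold higher or lower in DFMO, where 5.01% of 11706 genes were higher and 2.88% lower by that much. As a log2 ratio of DFMO to water, the median was 0.10 over the 30 genes and 0.05 over all genes. For Atf4 the log2 ratio was 0.01 (-0.05 to 0.06), which TMM scaling moved to -0.06, and for Ddit3 it was -0.10 (-0.16 to -0.03). Thinned to 1000 UMIs a cell, 3 genes passed 1.5-fold higher, and with cells weighted equally 1 did. The share of all genes was not counted under these settings.

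Within that narrow range the genes differed by role. All 6 tRNA synthetases were higher in DFMO in Ptprc-low cells with intervals above 0, with 0.19 as the median of their log2 ratios. Of all 11706 genes, 58.1% were higher there by any size and 19.3% had intervals above 0. Nars had 245 CPM in DFMO and 196 in water, a log2 ratio of 0.32 (0.25 to 0.39), and Wars had 51.7 and 40.7, a ratio of 0.35 (0.19 to 0.50). The smallest was that of Sars, 0.10 (0.04 to 0.16). With cells weighted equally Aars turned to -0.04, and thinned to -0.02. With TMM scaling all 6 ratios stayed above 0, but not all their intervals. It moved the ratios by -0.06, which takes the lower limits of Aars and Sars below 0. Phgdh was higher by 0.23 (0.19 to 0.26), Aldh1l2 by 0.29 (0.17 to 0.41, but -0.02 when thinned), Asns by 0.15 (0.08 to 0.22) and Vldlr by 0.51 (0.36 to 0.66). Eif4ebp1 was lower, with 1215 CPM in DFMO and 1378 in water, a log2 ratio of -0.18 (-0.21 to -0.15), and so was Chac1, with -0.20 (-0.34 to -0.06). No spread between mice is known for these ratios.

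In fibroblast-like cells, 4 of 30 genes were at least 1.5-fold higher in DFMO and 0 lower, beside 6.02% and 6.46% of 10768 genes. They were Mthfd1l, with 67.0 CPM in DFMO and 42.5 in water, a log2 ratio of 0.66 (0.39 to 0.92), Mthfd1, with 24.2 and 15.5, a ratio of 0.64 (0.19 to 1.08), Aldh1l2, with 51.3 and 32.8, a ratio of 0.64 (0.34 to 0.94), and Vldlr, with 68.3 and 44.2, a ratio of 0.63 (0.36 to 0.88). All 6 one-carbon enzymes were higher, with a median of 0.59, and 5 of them had intervals above 0. Of all 10768 genes, 51.2% were higher by any size and 12% had intervals above 0. Here too the background was not matched for level. The exception among the 6 was Shmt1, with 14 UMIs in DFMO and 68 in water. All 3 serine enzymes and all 6 synthetases were higher too, with medians of 0.27 and 0.32, where the median over all genes was 0.01. Psph turned to -0.48 when cells were thinned, and without subcluster 1 of the finer clustering Aars was at -0.10 and Shmt1 at -0.13. In contrast, the transcription factors had a median of -0.02, and Cebpb was lower, with 382 CPM in DFMO and 465 in water, a ratio of -0.28 (-0.39 to -0.18). Nupr1 had a ratio of -0.17 (-0.23 to -0.11). The count of 4 was not stable. It was 0 with cells weighted equally, and 7 without subcluster 10 of the finer clustering. Without subcluster 1, which held 87 DFMO and 659 water cells, it was 2, with 1 gene lower. Mthfd1 then had a ratio of 0.19 and Vldlr of 0.33. Under these settings the share of all genes was not counted. The 16 immediate early genes summed to 4393 CPM in DFMO and 6297 in water in these cells, with 13 of 15 measured lower, and the fibroblast markers to 12733 and 13918. Their part in the ratios was not tested.

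**Figure D4:**
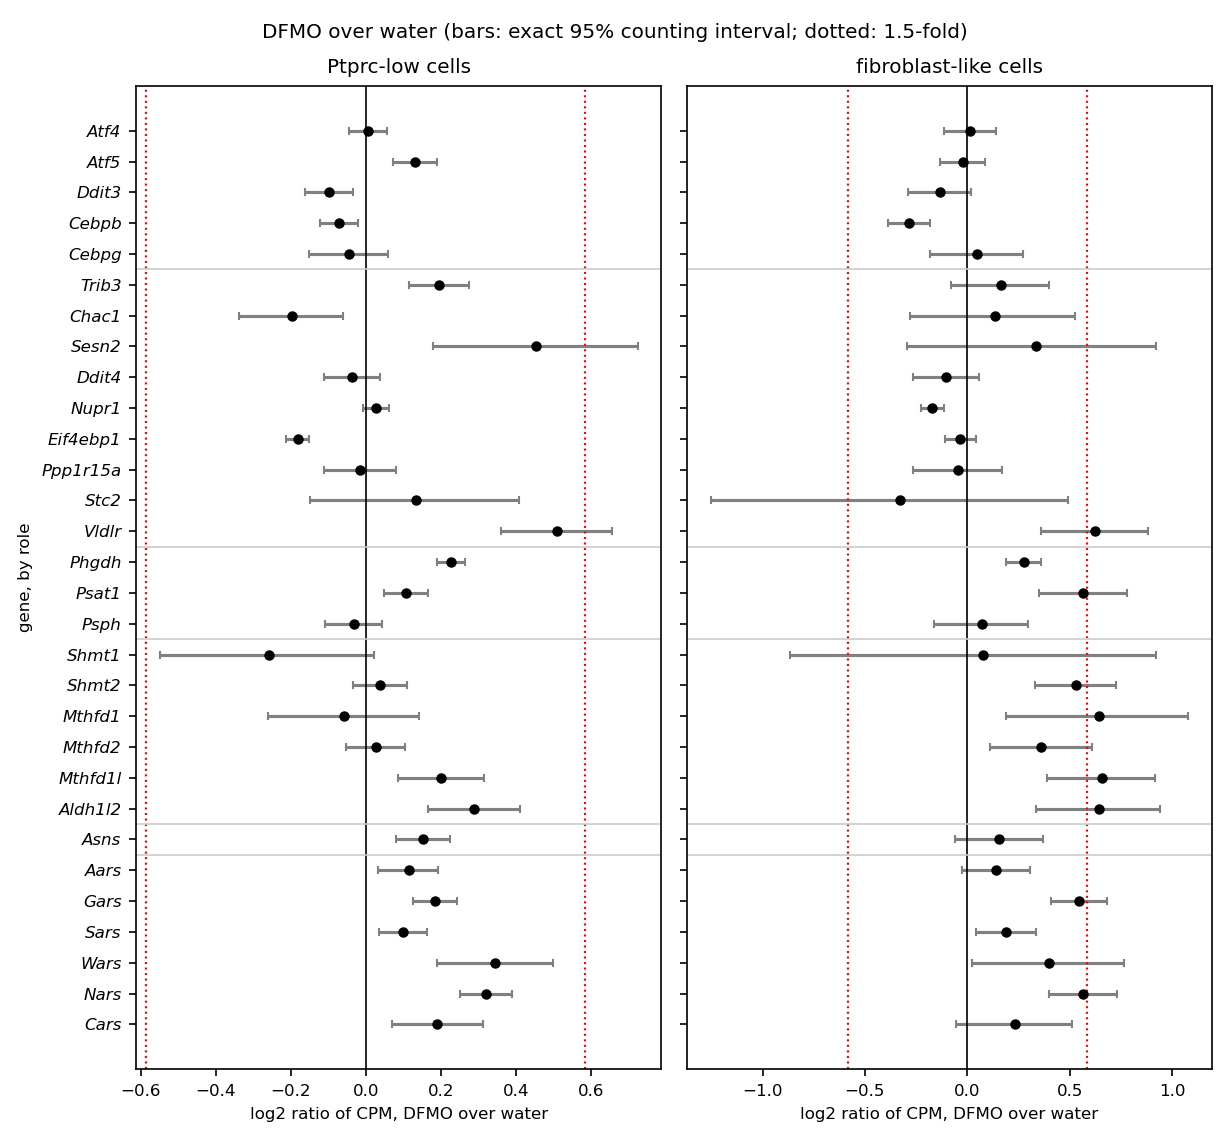
Log2 ratio of CPM, DFMO over water (horizontal), of 30 genes by role (rows, grey lines between roles) in Ptprc-low (left) and fibroblast-like cells (right), with exact 95% counting intervals. Red dotted lines mark 1.5-fold. In both panels the 6 tRNA synthetases lie right of 0 (Aars is at -0.04 in Ptprc-low cells when cells are weighted equally), and in fibroblast-like cells Mthfd1, Mthfd1l, Aldh1l2 and Vldlr lie past 1.5-fold.

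Taken cluster by cluster, 8 of the 26 genes with at least 30 UMIs in each of clusters 1, 2, 3 and 13 were higher in DFMO in all 4 (30.8%), where 15.5% of 6107 genes were. They were Phgdh, Psat1, Aldh1l2, Asns, Gars, Sars, Wars and Nars, that is, 4 of the 6 synthetases, 2 of the 3 serine enzymes, Asns and 1 of the one-carbon enzymes. Lower in all 4 were Ddit4 and Eif4ebp1, 2 genes of 26, where 17.6% of genes were. The clusters share a library and are not replicates. For Nars the log2 ratios were 0.36, 0.57, 0.27 and 0.29 in clusters 1, 2, 3 and 13, and for Wars 0.39, 0.40, 0.30 and 0.14. For Psat1 they were 0.09, 0.57, 0.01 and 0.73, so 2 clusters carried most of it. None of the 5 transcription factors had 1 sign in all 4, but Cebpb and Ddit3 missed it only by values near 0 in cluster 1. In clusters 1, 2, 3 and 13 Cebpb had 6.1e-05, -0.28, -0.16 and -0.07, and Ddit3 had 0.01, -0.13, -0.23 and -0.12. The TMM scaling given below takes both below 0 in cluster 1. Trib3 ranged from 0.40 in cluster 1 to -0.37 in cluster 13. With TMM scaling, which moved the ratios by -0.09 in cluster 1, -0.04 in cluster 2, -0.03 in cluster 3 and 0.01 in cluster 13, the counts were 6 higher and 6 lower, and with cells thinned to 1000 UMIs they were 2 higher and 4 lower of 17 measured. In the 9 corresponding clusters at resolution 2.0, Gars and Nars were the 2 of 22 measured genes higher in every one. The share of all genes was not counted under these alternatives.

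Within the single Ptprc-low clusters few genes passed 1.5-fold. In cluster 1, Sesn2 alone did, with 19.6 CPM in DFMO and 12.1 in water, a log2 ratio of 0.70 (0.34 to 1.04), beside 6.05% of 11046 genes higher and 2.81% lower. In cluster 3 there was none in either direction, beside 4.99% and 4.1% of 10361 genes. In cluster 13, Psat1 was higher, with 516 CPM in DFMO and 310 in water, a ratio of 0.73 (0.53 to 0.93). Lower there were Chac1, with 4 and 32 UMIs and a ratio of -1.59 (-3.55 to -0.09), and Mthfd1, with 11 and 49 UMIs and an interval that held 0. In that cluster 6.64% of 6221 genes were higher and 11.4% lower by as much. Its epithelial and erythroid markers differed widely between the libraries, as given above, and the part of cell content in its ratios was not tested.

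The other genes of the pathway, listed by function, showed the same narrow range. Of 14 measured of 15 other cytosolic tRNA synthetases, 13 were higher in DFMO in Ptprc-low cells, with a median log2 ratio of 0.14, and 11 in fibroblast-like cells, with a median of 0.18, where 58.1% and 51.2% of all genes were higher. None passed 1.5-fold in either class, and 6 were higher in all 4 clusters. The exception in Ptprc-low cells, Farsa, had a ratio of -0.18 (-0.32 to -0.04). Of 22 measured of 23 other amino acid response genes, 19 were higher in Ptprc-low cells, with a median of 0.21. Only Atf3 passed 1.5-fold there, and it was lower, with 4.42 CPM in DFMO and 7.37 in water. In fibroblast-like cells 15 of 21 were higher, with a median of 0.17, and Fgf21 alone passed, higher in DFMO, with 14 UMIs in DFMO and 24 in water. Farsa, Atf3 and Fgf21 were named after their values were seen. The 13 genes of the eIF2 kinases, eIF2 and its exchange factor, upstream of ATF4, had medians of 0.10 and 0.18 with none past 1.5-fold. The 18 genes of endoplasmic reticulum chaperones and the other branches of the unfolded protein response had medians of 0.05 and 0.14, and the 17 measured of 20 other folate genes had medians of -0.02 and 0.08. Of all these lists and the hypoxia list, the single gene past 1.5-fold in the same direction in both classes was Hk2, a hexokinase of the hypoxia list. It had 60.1 CPM in DFMO and 37.7 in water in Ptprc-low cells, a log2 ratio of 0.67 (0.52 to 0.82), and 60.2 and 37.7 in fibroblast-like cells, a ratio of 0.67 (0.39 to 0.95). The hypoxia list as a whole had medians of 0.06 and 0.11.

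Among CD8 T cell-like cells 24 genes were measured, of which 2 were at least 1.5-fold higher in DFMO and 3 lower, beside 13.9% and 7.4% of 9138 genes. Shmt2 had 83.5 CPM in DFMO and 53.1 in water, a log2 ratio of 0.65 (0.34 to 0.97), and Ppp1r15a had 273 and 174, a ratio of 0.65 (0.48 to 0.82). Ddit4 had 177 and 284, a ratio of -0.68 (-0.85 to -0.52), and Cebpb 113 and 172, a ratio of -0.60 (-0.81 to -0.39). Nupr1 rested on 13 and 17 UMIs and its interval held 0. The class was not the same mixture in both libraries. Cluster 9, led by Dapl1 and Lef1, genes of naive T cells, held 449 of its 748 cells in DFMO and 40 of 548 in water, and cluster 5, led by Gzmf and Pdcd1, genes of activated and exhausted T cells, held 217 and 374. Without cluster 9, 0 genes passed 1.5-fold higher, but the share of all genes was not counted there. Within cluster 5, Shmt2 had 62.9 CPM in DFMO and 41.1 in water, a ratio of 0.61 (0.09 to 1.14). It was 1 of 2 genes past 1.5-fold higher there, with Asns on 17 and 14 UMIs, beside 7.59% of 7182 genes, and Cebpg was lower, with a ratio of -0.63 (-1.18 to -0.09), beside 4.8%. In the cycling cluster 15 (82 DFMO and 134 water cells), 4 of 22 genes were higher, beside 10.1% of 6381 genes: Phgdh, with 327 CPM in DFMO and 214 in water, Gars, with 152 and 92.6, Mthfd1l, with 33 and 18 UMIs, and Mthfd1, with 38 and 26 UMIs and an interval that held 0. Lower there were Ddit3, with 21 and 51 UMIs, Ddit4, with 193 CPM in DFMO and 307 in water, and Asns, on 13 and 22 UMIs, beside 7.76% of genes.

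In NK cell-like cells 0 of 22 measured genes were 1.5-fold higher and 4 were lower, beside 7.6% and 5.9% of 7701 genes. Atf5 had 7 UMIs in DFMO and 35 in water, a log2 ratio of -1.59 (-3.00 to -0.39), and Cars had 10 and 41, a ratio of -1.30 (-2.46 to -0.28). Cebpg had 26.4 CPM and 48.2, a ratio of -0.86 (-1.50 to -0.27), and Shmt2 had 52.9 and 82.5, a ratio of -0.64 (-1.09 to -0.21). Thinned, Atf5 turned to 0.02. Nupr1, which was far higher in the non-leukocyte cells, had 3 UMIs in NK cell-like cells of DFMO and 22 of water, too few to be counted as measured. The 7 fibroblast markers went the same way in these cells, with 4.27 CPM in DFMO and 48.2 in water, and their part in the ratios was not tested. The 16 cell cycle genes summed to 2426 and 3435 CPM.

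Regulatory T cell-like cells, a comparison added after the classes were seen, had 18 measured genes, of which Nars was higher and 4 were lower, beside 15.1% and 7.16% of 6033 genes. Nars had 90.3 CPM in DFMO and 53.0 in water, a log2 ratio of 0.77 (0.18 to 1.37). The 4 were Ddit4, with 459 and 786 CPM and a ratio of -0.78 (-0.98 to -0.58), Cebpb, with -0.86 (-1.18 to -0.54), Cebpg, with -0.88 (-1.63 to -0.16), and Eif4ebp1, with -0.69 (-1.26 to -0.13). Ddit4 was thus lower in DFMO in this class and in CD8 T cell-like cells, and the hypoxia list was lower in both as well, with sums of 3220 CPM in DFMO and 4280 in water in CD8 T cell-like cells and 2864 and 4404 in regulatory T cell-like cells. The part of these genes in the ratio of Ddit4 was not tested. With cells of at least 500 genes, 7 genes were higher and 2 lower in this class, and the share of all genes was not counted there.

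In monocyte and macrophage-like cells 0 of 25 measured genes were 1.5-fold higher and 1 was lower, beside 7.5% and 8.27% of 8864 genes. That gene, Sesn2, had 6 UMIs in DFMO and 61 in water, and its interval held 0 (-2.51 to 0.20). Cebpb had a ratio of -0.12 (-0.18 to -0.07) there, but its clusters went opposite ways. It was lower in DFMO in cluster 7, with 3115 CPM in DFMO and 3842 in water, and in cluster 12, with 3313 and 3896, and higher in cluster 10, with 2096 and 1728, a ratio of 0.28 (0.16 to 0.39). In cluster 7, 1 of 19 measured genes was 1.5-fold higher and 6 were lower, beside 10.5% and 13.1% of 6197 genes. The higher one was Sars, with 30 UMIs in DFMO and 97 in water, a ratio of 0.79 (0.15 to 1.39). Of the lower ones, Nupr1, with -0.77 (-1.16 to -0.39), and Atf4, with -0.60 (-1.21 to -0.04), had intervals below 0.

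Summed over all kept cells, the ratios differed from those within classes. Ppp1r15a was higher in DFMO, with 322 CPM against 172, a log2 ratio of 0.90 (0.86 to 0.95), and 4 genes were lower, Cebpb, Chac1, Eif4ebp1 and Nupr1, with ratios of -0.61 to -0.68, beside 17.8% and 10.1% of 14122 genes. The median over 30 genes was -0.17. When the DFMO clusters were given the weights they had in water, 0 genes passed in either direction and the median was 0.12. With those weights the share of all genes was not counted. In a sum over all kept cells, fewer cells of a type and less RNA per cell cannot be told apart.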

How the data were processed

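A single matrix of UMI counts, not normalized, was deposited by the authors with a table of cells, in which the water group is called Control. Cell Ranger 3.02, Scanpy 1.4.4 and build mm10 are named per the submitters' processing notes, and the strand used in counting is not given in the sources used here. The DFMO library held 23588037 deposited UMIs in 4472 cells and the water library 59748244 in 6248. Labels differ on whether gavage was daily or more often.

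Cells with at least 200 genes were kept and doublets were removed by Scrublet (scanpy 1.11.5, rate 0.05: 51 DFMO and 97 water cells, with only 26.7% and 35.0% of simulated doublets called). Counts were scaled to 10000 and log transformed, and 2000 variable genes, 30 components, 15 neighbours and Leiden resolution 1.0 (leidenalg 0.10.2) gave 19 clusters. A class needed at least 3 and 0.6 of its markers, each 2-fold over other cells and in 0.1 of the cluster's cells, a rule set after the clusters were seen. Ptprc-low stands for unnamed clusters in which Ptprc was under 20 CPM.

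UMIs of each class were added up within a library. CPM have exact Poisson intervals, log2 ratios exact conditional binomial intervals and shares Clopper-Pearson intervals. Genes with at least 30 UMIs over both libraries were called measured, and classes with 100 cells in each library were compared. The intervals were tested on simulated counts. Any of the 31 genes could be named, and other genes only when past 1.5-fold in the same direction in Ptprc-low and fibroblast-like cells. The genes and lists were chosen with earlier results of these data known. Alternatives were doublets kept, 500 genes, resolutions 0.5 and 2.0, TMM (edgeR 4.0.16), cells weighted equally, 10 or 100 UMIs, and thinning to 1000 UMIs. Coordinates of the promoter stretches are those of RefSeq on GRCm38.p6. Atf5, Ddit3, Psph, Shmt1, Shmt2, Mthfd1, Aldh1l2, Cebpb, Cebpg, Ppp1r15a, Aars and Cars share exon sequence with a gene on the opposite strand, whose reads cannot be told apart if counting ignored strand. 1 promoter sequence is not reported here.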

Additional observations from a re-analysis of the deposited data

Results flagged for a closer look

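Shmt2, the mitochondrial serine hydroxymethyltransferase, passed 1.5-fold in opposite directions in 2 lymphocyte classes. Its log2 ratio of DFMO over water was 0.65 in CD8 T cell-like cells (253 UMIs in DFMO and 130 in water) and -0.64 in NK cell-like cells (62 and 161 UMIs). The difference between the classes was not tested, since each group was 1 library. Within CD8 T cell-like cells the mixture of clusters differed between the libraries, as given above. Shmt2 had 62.9 CPM in DFMO and 41.1 in water in cluster 5, but 71.0 and 69.5 in cluster 15. In cluster 9 it had 116 and 80.4, the latter on 5 UMIs. The NK cell-like mixture differed as well. At resolution 2.0 its clusters 14 and 18 held 108 and 101 cells in DFMO and 224 and 129 in water.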

How the results depend on the processing

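No paired analysis was possible because the mice were pooled into a single library for each treatment. The limits are 1 library a group, shallow DFMO lymphocytes, doublets that may remain, and clusters named from markers. Of 30 genes, 25 to 30 kept their highest class in each library under the 4 other filters and clusterings. Of the values for single genes, leaving aside the UMI minimums, which change no ratio, 218 moved beyond their counting interval and 1174 stayed within it. Thinning alone moved 88, kept 86 and turned the sign of 2: Atf5 in NK cell-like cells (0.023) and Sesn2 in monocyte and macrophage-like cells (0.026). The cause was not tested for any change below. Over all kept cells the median was -0.72 and 17 genes were lower with cells weighted equally, -0.55 and 14 when thinned, and 0.12 with 0 higher and 0 lower with clusters weighted as in water. Counts of genes past 1.5-fold moved as follows. They have no share beside them, since the share of all genes was counted only at the main settings. In CD8 T cell-like cells 1 was higher with doublets kept, 1 with 500 genes, 4 when thinned and 0 without cluster 9, while 6 were lower with equal weights and 5 with 10 UMIs. In NK cell-like cells equal weights gave 1 higher and 2 lower, and 100 UMIs 2 lower. In monocyte and macrophage-like cells 2 were higher with doublets kept, 1 with equal weights and 1 when thinned, while 3 were lower at resolution 0.5, 4 with equal weights and 0 with 100 UMIs. In fibroblast-like cells 0 were higher with equal weights, 2 without subcluster 1 (with 1 lower) and 7 without subcluster 10. In Ptprc-low cells 1 was higher with equal weights and 3 when thinned. In regulatory T cell-like cells 5 were higher with doublets kept, 7 with 500 genes (2 lower), 2 at resolution 0.5, 2 with equal weights, 2 with 10 UMIs (8 lower) and 3 when thinned. Higher in every Ptprc-low and fibroblast-like cluster were 5 at resolution 0.5, 2 at resolution 2.0 (0 lower) and 2 when thinned (4 lower), and lower in every one were 1 with 500 genes, 6 with TMM and 5 with equal weights. The alternatives that left out a cluster or reweighted clusters, the regulatory T cell-like class and the count over clusters were chosen after seeing the data.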
